A study of Mus musculus with 40 samples.

Results

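The question was what plate-bound semaphorin-4a does to RNA levels in regulatory T cells (Treg) whose Nrp1 gene is floxed and exposed to a Cre recombinase made under Foxp3. Of the 40 arrays of the series, 16 belong to this experiment. They form 8 pairs of 1 Sema4a-Ig array and 1 IgG1 array, chosen by neighbouring codes in their titles. A further 8 pairs from mice with an unmodified Nrp1 gene, 16 arrays in all, serve for comparison. The groups are KO cells with Sema4a-Ig (8 arrays), KO cells with IgG1 (8 arrays), WT cells with Sema4a-Ig (8 arrays) and WT cells with IgG1 (8 arrays).

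The KO label gives the genotype as Nrp fl/fl x Foxp3-YFP-iCre, so Cre acts where Foxp3 is made, and the WT label as Foxp3-YFPiCre, so the controls carry the same Cre and reporter. All mice are labelled C57Bl/6. The cells were sorted from spleen and peripheral lymph nodes as CD4+ CD45RBlow YFP+, and every culture received 100.0 U/mL human IL-2, 1.0 µg/mL plate-bound antibody to CD3 and 2.0 µg/mL soluble antibody to CD28. Sema4a-Ig, a fusion of semaphorin-4a to an immunoglobulin tail, or control IgG1 was plate-bound at 10.0 µg/mL. The labels used here give no age, number of pooled animals or culture time, and do not call the replicates separate animals. P-values therefore measure the spread between these pairs, which may be technical. The titles gave the groups. For WT replicate 2 the Sema4a-Ig array is titled WT and carries the KO genotype label.

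Semaphorin-4a is a membrane-bound ligand of immune cells, and neuropilin-1, the product of Nrp1, is a co-receptor with a short cytoplasmic tail that the series title places beside it as a partner in Treg. In T cells, signals that restrain Akt leave FOXO transcription factors in the nucleus, where they maintain genes of quiescence and recirculation such as Klf2 and its target S1pr1. Stimulation through the T cell receptor (TCR) and CD28 does the opposite and drives activation, growth and division genes.

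The unit throughout is log2 signal, and a difference is the log2 signal with Sema4a-Ig minus that with IgG1 in the same pair. At each of the 45141 probe sets all 16 pairs had the same mean of their 2 arrays, within 6e-05, so levels carry no information beyond these differences. A level with Sema4a-Ig and its partner with IgG1 lie at equal distance above and below 1 value per gene, and the ranges of the 2 groups mirror each other. Loss of Nrp1 RNA cannot be checked for the same reason. Of 17097 genes, 9961 had a mean signal above 3.95, the top value among 23 probe sets for nonspecific controls (their median was 2.29). Foxp3, the gene that defines Treg, had a mean of 3.55, above the median of these controls but below the top one. Its signal was thus not separated from the highest control. Other genes usual in Treg lay above it, among them Ikzf2 (11.11), Ctla4 (11.09), Tnfrsf18 (10.97) and Il2ra (10.26), as did the T cell genes Cd3g (10.38) and Cd3e (8.67). These are bulk RNA values, in which fewer cells of a type and less RNA per cell cannot be told apart.

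The pairs differed in how far their 2 arrays lay apart. The SD over all genes of a pair's differences was 0.466 in KO pair 3 (codes gmd055 and gmd056), the highest of the KO pairs, and 0.209 in pair 7, the lowest. Values without pair 3 are therefore given for the main results and wherever leaving it out moves a KO difference discussed here by over 1.5 times. WT pair 3, with the codes just before it, had the highest SD of the WT pairs (0.498).

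No gene passed limma's test for Sema4a-Ig in KO (0 of 17097, 0%, Benjamini-Hochberg adjusted p at least 0.376). At an unadjusted p under 0.05 there were 687 genes with a positive difference (4.02%) and 1100 with a negative one (6.43%). The balance of directions depended on the scaling, with 884 and 849 once each pair's median was set to 0, and 896 and 834 after quantile normalization. Without pair 3 the counts were 471 and 591. The differences were small: 3 genes lay at 0.5 or above and 14 at -0.5 or below among those above the controls, against 154 and 128 in WT. The test of KO against WT called no gene either (0 of 17097, 0%, smallest adjusted p = 0.614), with 1015 at an unadjusted p under 0.05 (5.94%). In WT the same fit called 498 genes higher (2.91%) and 492 lower (2.88%), 990 in all, with 677 without WT pair 2, whose labels disagree, and 258 without WT pair 3.

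Klf2, Xcl1 and Trib2 were taken as the marker genes of the experiment, and their promoters are shown because each had 1 direction in all 8 KO pairs. Klf2 (Entrez 16598) encodes a zinc finger factor that holds T cells quiescent, Trib2 (Entrez 217410) a Tribbles pseudokinase and Xcl1 (Entrez 16963) lymphotactin, a chemokine for XCR1+ dendritic cells. The windows run from 250 bases before to 50 bases after the RefSeq start on GRCm38.p6. They were searched on both strands for TGTTTAC (a FOXO core), CACCC (a KLF core) and GGAAAA (an NFAT core), and matches are in capitals.
Klf2, chr8:72318812-72319111, + strand: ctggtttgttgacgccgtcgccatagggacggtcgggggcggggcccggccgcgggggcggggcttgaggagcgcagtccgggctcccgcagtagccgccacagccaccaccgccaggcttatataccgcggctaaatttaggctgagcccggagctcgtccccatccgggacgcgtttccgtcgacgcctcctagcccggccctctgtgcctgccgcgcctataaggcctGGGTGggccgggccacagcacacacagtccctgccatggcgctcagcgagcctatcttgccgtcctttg
Xcl1, chr1:164935473-164935772, - strand: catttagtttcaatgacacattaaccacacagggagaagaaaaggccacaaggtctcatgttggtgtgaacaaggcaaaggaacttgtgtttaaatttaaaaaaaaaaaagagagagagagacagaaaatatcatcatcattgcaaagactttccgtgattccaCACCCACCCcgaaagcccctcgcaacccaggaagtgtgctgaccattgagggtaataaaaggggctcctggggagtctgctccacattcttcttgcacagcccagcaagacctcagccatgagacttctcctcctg
Trib2, chr12:15816736-15817035, - strand: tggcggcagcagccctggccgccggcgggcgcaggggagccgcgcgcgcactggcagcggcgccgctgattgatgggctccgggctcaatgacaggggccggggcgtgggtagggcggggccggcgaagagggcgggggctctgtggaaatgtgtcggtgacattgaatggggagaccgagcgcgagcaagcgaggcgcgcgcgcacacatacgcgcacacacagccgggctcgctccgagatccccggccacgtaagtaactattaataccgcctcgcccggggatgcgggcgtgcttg
The Klf2 window held 1 CACCC match, read on the other strand, the Xcl1 window 2 that overlap by 1 base and the Trib2 window 0. The other motifs had 0 matches in all 3 windows, so no 2 motifs overlapped. Of 16953 such windows of 13514 tested genes, 63.1% held CACCC, 21.5% GGAAAA and 2.94% TGTTTAC.

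Klf2 had differences of 0.42, 0.51, 1.19, 0.49, 0.38, 0.02, 0.11 and 0.26 in KO pairs 1 to 8. All 8 were positive, pairs 6 and 7 were close to 0 and pair 3 was far above the others. The levels ran from 8.41 to 8.99 (median 8.60) with Sema4a-Ig and from 7.80 to 8.39 (median 8.20) with IgG1, so the groups did not overlap. Between mirrored groups this says no more than that every difference was positive. Every SE (±) here and below is limma's moderated value, with a spread per gene shared by the 8 KO and 8 WT pairs. It is therefore not the SE of the KO pairs alone. The KO mean was 0.42 ± 0.13 (SE, n = 8), or 1.34-fold, and did not pass (limma, adjusted p = 0.378). It was 0.31 without pair 3. In WT the mean was 1.05 and was called (limma, adjusted p = 0.000392). KO minus WT was -0.63 (95% interval -1.02 to -0.24), which did not pass over all genes (limma, adjusted p = 0.675).

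Xcl1 had differences of -0.57, -1.26, -1.55, -0.69, -0.65, -0.07, -0.07 and -0.37 in KO pairs 1 to 8. All were negative, with pairs 2 and 3 lowest and pairs 6 and 7 close to 0. The KO mean was -0.66 ± 0.17 (SE, n = 8; limma, adjusted p = 0.376), and -0.53 without pair 3. The WT mean was -0.93, and KO minus WT was 0.28 (95% interval -0.22 to 0.78). That interval holds 0 and also differences as large as the KO mean itself.

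Trib2 had differences of 0.76, 0.40, 0.64, 0.67, 0.53, 0.19, 0.10 and 0.39 in the KO pairs. Its spread was narrower than that of Klf2 and pair 3 did not stand apart. The KO mean was 0.46 ± 0.10 (SE, n = 8; limma, adjusted p = 0.376), 0.43 without pair 3, against 0.70 in WT. A second Trib2 probe set, with a lower signal of 5.12, gave 0.09 ± 0.15 in KO and 0.65 in WT, so the KO value differed between the probe sets.

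**Figure D1:**
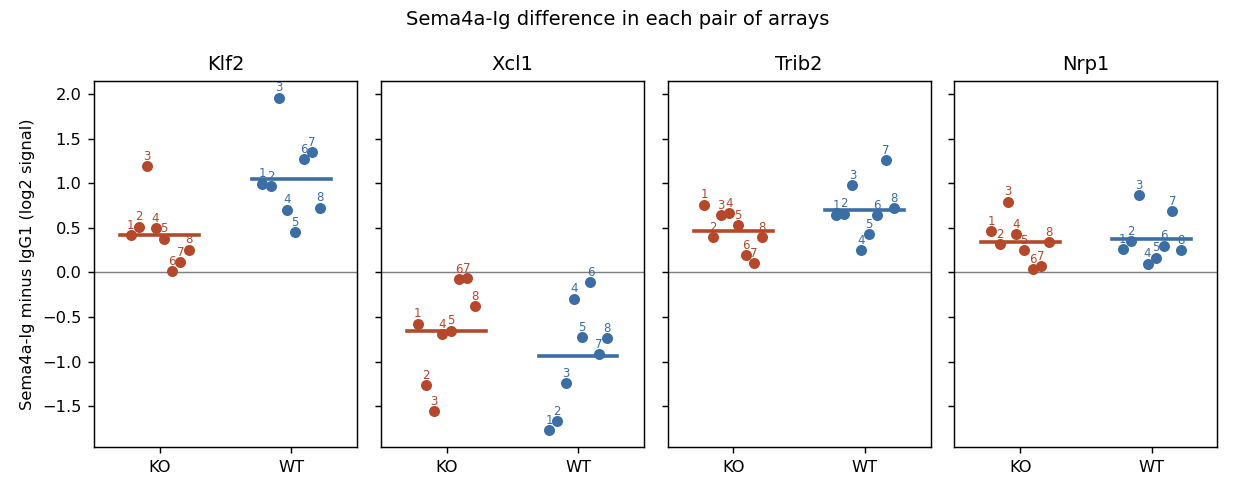
Difference in log2 signal, Sema4a-Ig minus IgG1, of Klf2, Xcl1, Trib2 and Nrp1 in each of the 8 KO pairs (left) and 8 WT pairs (right). Each point is a pair, numbered by replicate, and bars are means. All KO points of Klf2, Trib2 and Nrp1 lie above 0 and all of Xcl1 below it, with KO pairs 6 and 7 nearest to 0.

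Nrp1 itself (Entrez 18186) was among the genes with 1 direction in every KO pair. Its differences in KO ran from 0.03 to 0.79 with a median of 0.33, and the mean was 0.34 ± 0.09 (SE, n = 8; limma, adjusted p = 0.378), or 0.27 without pair 3. WT had a mean of 0.37. The KO minus WT difference was -0.03 (95% interval -0.30 to 0.24). The 2 other Nrp1 probe sets gave 0.43 and 0.37 in KO, against 0.47 and 0.36 in WT. The labels do not say which part of the gene the probe sets read, so this RNA cannot be assigned to an intact or a deleted allele.

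The receptor and ligand families of Nrp1 showed no common direction. Of 28 semaphorin, plexin, neuropilin and related genes, 20 above the controls, 16 had a positive mean difference in KO and the median was 0.01 (0.05 without pair 3), against -0.02 over all genes. At an unadjusted p under 0.05 stood Nrp1 and Rras, a small GTPase on which plexins act (0.31 ± 0.12), on the positive side and Sema7a, a GPI-anchored semaphorin, on the negative side. Sema7a was negative in all 8 KO pairs (-0.50 ± 0.15, SE, n = 8; limma, adjusted p = 0.378) and had -0.57 in WT. The plexins above the controls, receptors for semaphorins, had KO means from -0.18 (Plxna3) to 0.18 (Plxna4). The Plxna4 value rested on pair 3 (1.11) and was 0.04 without it. Endogenous Sema4a had -0.15 ± 0.14, with pairs from -0.89 to 0.67 and a mean of -0.04 without pair 3, and Nrp2 0.11 ± 0.12. Other reported semaphorin-4a receptor genes, Plxnd1 (-0.08 ± 0.11) and Timd2 (0.09 ± 0.12, below the controls), had differences smaller than their moderated standard errors. Without pair 3 the differences were -0.02 and 0.15.

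Among genes above the controls, 130 (1.31%) were higher with Sema4a-Ig in all 8 KO pairs and 256 (2.57%) were lower in all 8. The 20 largest of these were picked by direction and size in the same pairs, so their values are a description. On the positive side were Abhd18 (0.54), Ripor2 (0.53), which encodes an inhibitor of RhoA in T cell polarity, Gm20300 (0.49), the Krüppel-like repressor Klf3 (0.46), Trib2, the magnesium transporter family member Nipal1 (0.45), Mycn (0.44), Trat1 (0.44), an adaptor of the TCR complex, Mblac2 (0.43) and Klf2. On the negative side were Xcl1, the asparagine synthetase gene Asns (-0.61), the drug efflux pump gene Abcb1b (-0.60), Coq7 (-0.55) of ubiquinone synthesis, the mitochondrial ornithine carrier gene Slc25a15 (-0.53), the phospholipase gene Pla2g12a (-0.50), Sema7a, Tg (-0.49), the lipoprotein receptor gene Scarb1 (-0.49) and Alg8 (-0.48) of N-glycan assembly.

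Their adjusted p ran from 0.376 to 0.396 (limma). Without pair 3 the means were 0.30 to 0.48 on the positive side and -0.53 to -0.32 on the negative side, with Pla2g12a at -0.33 and Tg at -0.32. Abhd18 had differences from 0.10 to 0.95 and the smallest unadjusted KO p of all genes (2.73e-05, limma). It had 0.25 in WT (adjusted p = 0.154). Asns ran from -2.0003 in pair 3 to -0.06, a median of -0.42, and had -0.50 in WT. Among these 20, 4 genes had further probe sets above the controls, 9 in all, and each had the same sign in KO as the one used.

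**Figure D2:**
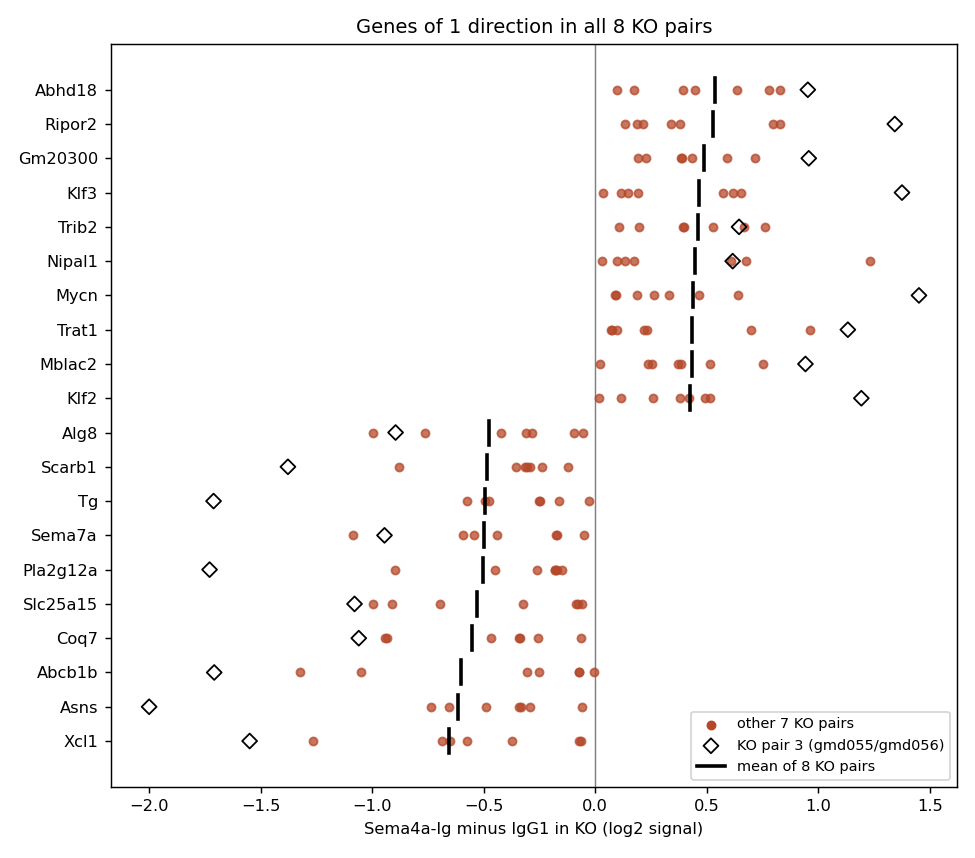
Difference in log2 signal, Sema4a-Ig minus IgG1, in each KO pair for the 10 largest positive and 10 largest negative genes with 1 direction in all 8 pairs. Filled points are 7 pairs, open diamonds KO pair 3, black bars the mean of 8. Pair 3 is the extreme pair for most genes, down to -2.0003 for Asns, and is within the other pairs for Trib2, Nipal1, Sema7a and Alg8.

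Genes of quiescence and of naive T cells leaned towards higher signal with Sema4a-Ig in KO. Of 23 measured FOXO and quiescence genes, 20 had a positive mean and 7 an unadjusted p under 0.05 (5 without pair 3), none on the negative side. Over genes above the controls 3854 of 9961 were positive, and 401 had an unadjusted p under 0.05 on that side (245 without pair 3). The list median was 0.15 (0.13 without pair 3), against -0.04 over genes above the controls (-0.02 without pair 3), and 0.26 in WT. It was positive in all 8 KO pairs, from 0.02 to 0.22. Besides Klf2 and Trib2 the largest were the antiproliferative gene Btg2 (0.37 ± 0.11, 7 of 8 pairs positive) and S1pr1 (0.32 ± 0.10, 7 of 8), the receptor for egress from lymph nodes. S1pr1 had 0.71 in WT and Btg2 0.36. A second Btg2 probe set, with a signal of 7.48, gave 0.17 ± 0.08 in KO and 0.17 in WT. Of 11 naive T cell genes 8 were positive (median 0.11), but Klf2 and S1pr1 are in this list too, so the 2 lists are not independent. Also positive were Nsg2 (0.27 ± 0.11) and Lef1 (0.24 ± 0.11), a transcription factor of naive cells. Of 20 TCR proximal signalling genes 13 were positive (median 0.02, or 0.0028 without pair 3), and 18 after quantile normalization (median 0.07). Trat1 alone had an unadjusted p under 0.05. The 19 lymphoid trafficking genes were split, 9 positive and 10 negative, with Itga4 at 0.29 ± 0.10 and the chemokine receptor gene Ccr8 at -0.50 ± 0.16.

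Genes of TCR activation leaned the other way. Among the 9961 genes above the controls, 6107 were negative and 901 had an unadjusted p under 0.05 on that side (411 without pair 3). These counts are the background for the activation, effector, growth and stress lists here and below. Of 33 TCR activation genes measured, 29 had a negative mean in KO and 14 an unadjusted p under 0.05 (8 without pair 3), none on the positive side. The median was -0.19 (-0.12 without pair 3), against -0.25 in WT, and it was negative in all 8 KO pairs. Examples besides Xcl1 are Ccl3 (-0.54 ± 0.19), a chemokine of activated T cells, Rgs16 (-0.48 ± 0.18), a regulator of G protein signalling, and Irf8 (-0.46 ± 0.16), a transcription factor gene negative in all 8 KO pairs. Of 20 AP-1, EGR and nuclear receptor genes, which are induced early after TCR contact, 18 were negative, and 14 after quantile normalization (median -0.19, 6 at an unadjusted p under 0.05, 3 without pair 3). Nr4a1 was negative in every KO pair, from -0.65 to -0.08, with a mean of -0.33 ± 0.10, beside -0.28 in WT. Atf3 had -0.47 ± 0.17 and Nr4a2 -0.41 ± 0.15.

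Of 21 effector cytokine and lineage genes, 5 below the controls, 17 were negative, and 14 after quantile normalization. At an unadjusted p under 0.05 stood 5 (4 without pair 3). The list median was -0.04 with and without pair 3. Over genes above the controls it was -0.04 (-0.02 without pair 3), so the list as a whole lay near that background. Ifng, the type 1 effector cytokine, had the most negative KO mean of all genes. Its pairs 1 to 8 had -0.38, -1.54, -2.60, -1.24, -0.63, 0.02, -0.27 and -0.76. The mean of -0.93 ± 0.22 (SE, n = 8; limma, adjusted p = 0.376) was -0.69 without pair 3, and WT had -0.85. Csf2, which encodes GM-CSF, had -0.77 ± 0.18, beside -0.75 in WT, with KO pairs from -1.84 to 0.16. Tbx21, the T-bet gene, had -0.66 ± 0.22, beside -0.70 in WT, and 7 of 8 KO pairs were negative. The 95% intervals of KO minus WT were -0.73 to 0.58 for Ifng, -0.56 to 0.51 for Csf2 and -0.60 to 0.69 for Tbx21. They leave room for a KO difference well below or above that of WT.

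Growth and division genes had small negative differences that leaned on pair 3. Of 38 cell cycle genes 37 were negative, with a median of -0.17 (-0.10 without pair 3), and 12 had an unadjusted p under 0.05 (3 without pair 3). The list median was -0.76 in pair 3 and between -0.26 and -0.01 in the other 7. Aurka, a mitotic kinase gene, had -0.39 ± 0.14 and the replication helicase gene Mcm3 -0.39 ± 0.13, and without pair 3 -0.24 and -0.30. Of 23 ribosome biogenesis genes 22 were negative (median -0.20, or -0.12 without pair 3, against -0.36 in WT), and 9 had an unadjusted p under 0.05 (3 without pair 3). Among them Rrp12, which acts in ribosomal subunit export, had -0.39 ± 0.11. Of 19 glycolysis genes 17 were negative (median -0.10, or -0.06 without pair 3), and 14 after quantile normalization. At an unadjusted p under 0.05 stood 2 of the 19, near the share of genes above the controls (901 of 9961), and 0 without pair 3. The phosphofructokinase gene Pfkl had -0.26 ± 0.11 and was negative in all 8 pairs. Of 26 integrated stress response genes, 5 below the controls, 20 were negative and 9 had an unadjusted p under 0.05 (4 without pair 3). Besides Asns they include the amino acid carrier gene Slc7a5 (-0.34 ± 0.10, negative in all 8 pairs) and Sesn2 (-0.34 ± 0.12). Cth had -0.48 ± 0.19, but its signal (3.78) was below the controls and 2 of its 8 KO pairs were positive. A second Sesn2 probe set, with a signal of 5.05, gave -0.09 ± 0.10 in KO.

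The counts for sterol and fatty acid synthesis and for the unfolded protein response moved with the scaling, and no direction is given for them. Over genes above the controls 6107 of 9961 were negative, and 5028 after quantile normalization. Of 24 sterol and fatty acid synthesis genes 16 were negative (median -0.07), and 12 after quantile normalization (median -0.03), with the squalene epoxidase gene Sqle at -0.32 ± 0.11 and Fdps at -0.30 ± 0.10. Of 20 unfolded protein response genes 16 were negative (median -0.08), and 12 after quantile normalization (median -0.05), among them Creld2 (-0.32 ± 0.10). Lists near 0 were the Treg signature (28 genes, 13 positive, median -0.01), PI3K, Akt and mTOR genes (21 genes, 10 positive), Bcl2 family and survival genes (19, 9 positive) and IL-2 and STAT5 genes (16, 10 positive, median 0.04, or 0.02 without pair 3). The medians of the Treg signature, the PI3K, Akt and mTOR list and lymphoid trafficking turned positive under quantile normalization (0.02, 0.05 and 0.01). Without pair 3 they were also positive (0.02, 0.009 and 0.00022), so no direction is given for them. Il10, which encodes a suppressive cytokine, had -0.34 ± 0.18, and Eif4ebp1, a translation repressor downstream of mTOR, -0.26 ± 0.09. A second Eif4ebp1 probe set, with a lower signal of 4.22, had the other sign in KO (0.17 ± 0.11).

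**Figure D3:**
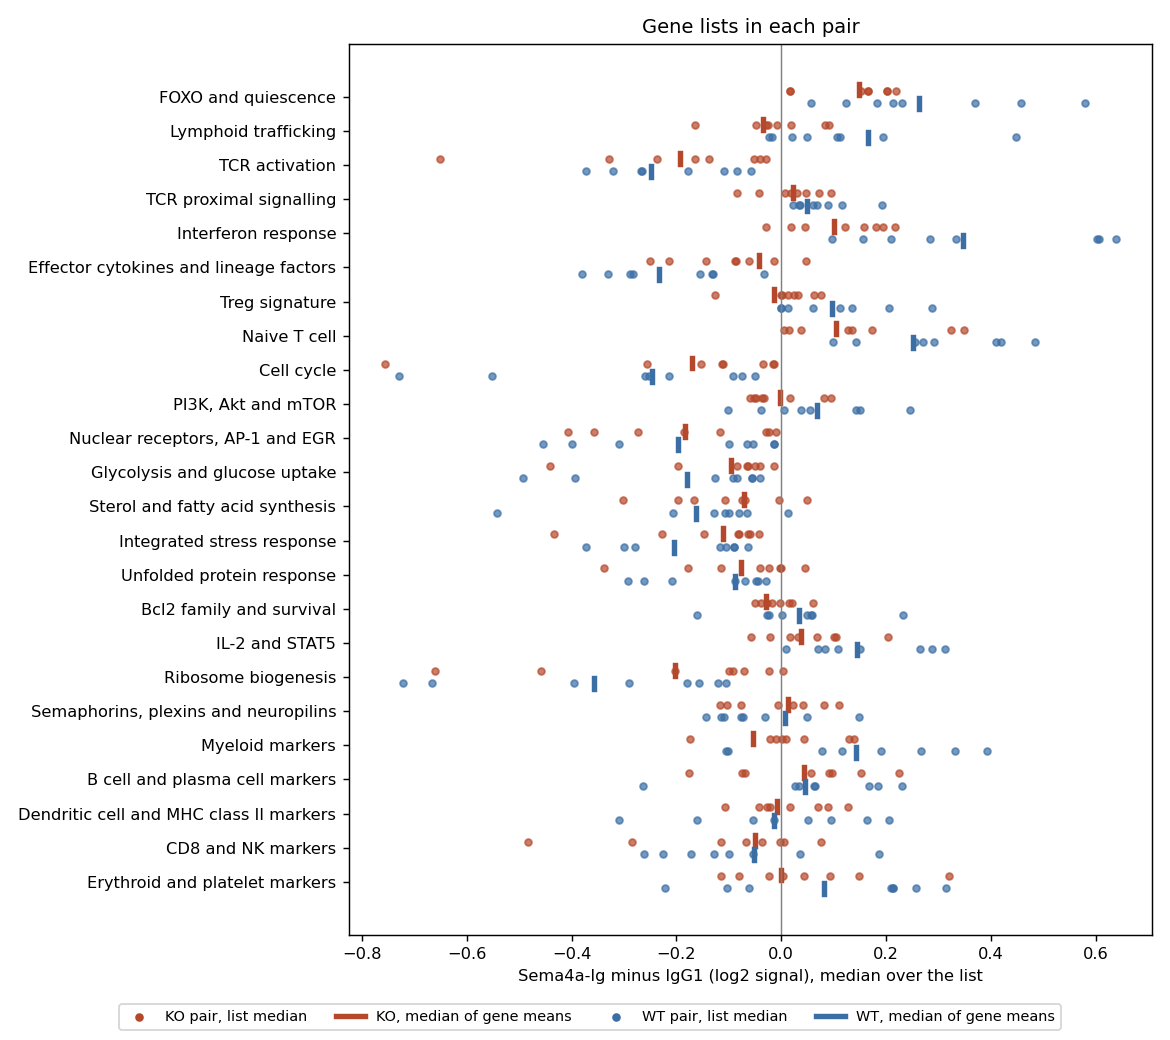
Median over each gene list of the difference in log2 signal, Sema4a-Ig minus IgG1. Points are single pairs, bars the median of the genes' means over 8 pairs, with KO above WT in each row. FOXO and quiescence (KO bar at 0.15) lies right of 0 in every pair of both genotypes, and TCR activation (KO bar at -0.19) lies left of 0 in every pair.

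Interferon response genes showed the widest gap between KO and WT of these lists. Of 37 measured, 29 had a positive mean in KO, with a median of 0.10 (0.09 without pair 3), against 0.35 in WT. In KO 7 had an unadjusted p under 0.05, and 2 without pair 3. In WT 19 of the 37 were called. For 34 of the 37 KO was below WT, beside 8462 of all 17097 genes. For 17 the KO minus WT difference had an unadjusted p under 0.05 with KO lower, beside 3.44% of all genes in that direction and 2.5% in the other. None passed after adjustment over all genes. Leaving out both pairs numbered 3 gave 16 at an unadjusted p under 0.05 with KO lower, beside 562 of all 17097 genes.

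Ifit1bl1, a member of the interferon-induced tetratricopeptide family, had KO differences from -0.23 to 0.88 and a mean of 0.31 ± 0.15 (SE, n = 8), against 1.13 in WT. KO minus WT was -0.82 (95% interval -1.26 to -0.39; limma, adjusted p = 0.614). Ifi213 had 0.32 in KO and 1.01 in WT, the guanylate-binding protein gene Gbp3 0.29 and 0.70, and Oasl2 0.28 and 0.80. These were also the genes with the largest WT values in part, and genes picked for a large WT value lie closer to 0 elsewhere on average.

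For 16 of 22 myeloid markers KO was below WT, and for 6 it was above, beside 8462 below and 8635 above of all 17097 genes. The cause of the gap in interferon genes was not tested. Of 22, 11 lay above the controls, and the mean over the list ran from 4.56 to 4.82 with Sema4a-Ig and from 4.49 to 4.75 with IgG1 in KO. The list median of differences was -0.05 in KO (-0.02 without pair 3) and 0.14 in WT. Lyz2, the macrophage lysozyme gene, had 0.25 ± 0.15 in KO and 0.81 in WT, and S100a8 -0.34 ± 0.26 and 0.45. The mean difference of all 22 myeloid markers, also those below the controls, was then used as a covariate. With it, 11 interferon genes had an unadjusted p under 0.05 with KO lower, beside 367 of all 17097 genes (588 without it). The list's median KO minus WT difference was -0.17, against -0.23 without it. The covariate also took the WT calls to 43, against 990. Tyrobp, a signalling adaptor of myeloid and NK cells, had 0.36 ± 0.11 in KO and 0.39 in WT. The median differences of the other cell type lists in KO were 0.04 for B cell and plasma cell markers (12 genes) and -0.05 for CD8 and NK markers (12 genes, 0.02 without pair 3). For dendritic cell and MHC class II markers (10 genes) the median was -0.01, or 0.03 after quantile normalization and 0.01 without pair 3. Of 8 erythroid and platelet markers 4 were positive. Jchain, a plasma cell gene with a mean signal of 3.36, below the controls, had -0.53 in KO and 0.58 in WT.

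Genes called in WT were then read in KO. Of the 498 called higher in WT, 464 (93.2%) had a positive mean in KO, and of the 492 called lower, 467 (94.9%) had a negative one. The share of genes with the same sign in both genotypes was 73.0% above the controls and 64.8% over all genes. Choosing genes for clear WT differences raises sign agreement by itself, so the shares of called genes are not read against these. The medians in KO were 0.16 and -0.19, against 0.42 and -0.41 in WT, and 0.13 and -0.14 without pair 3. The WT medians are high in part because the genes were chosen on them, so the ratio of the 2 is no measure of a smaller response. In the test of KO minus WT none of the 990 was called, and 233 and 106 had an unadjusted p under 0.05 (5.94% of all genes, both directions). Choosing genes for large WT values raises these counts by itself, so they are not read against that share. Across the 9961 genes the KO and WT means had Pearson's r = 0.64, and 0.51 without both pairs numbered 3. This is across genes, which are not independent replicates, and the arrays were normalized together.

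**Figure D4:**
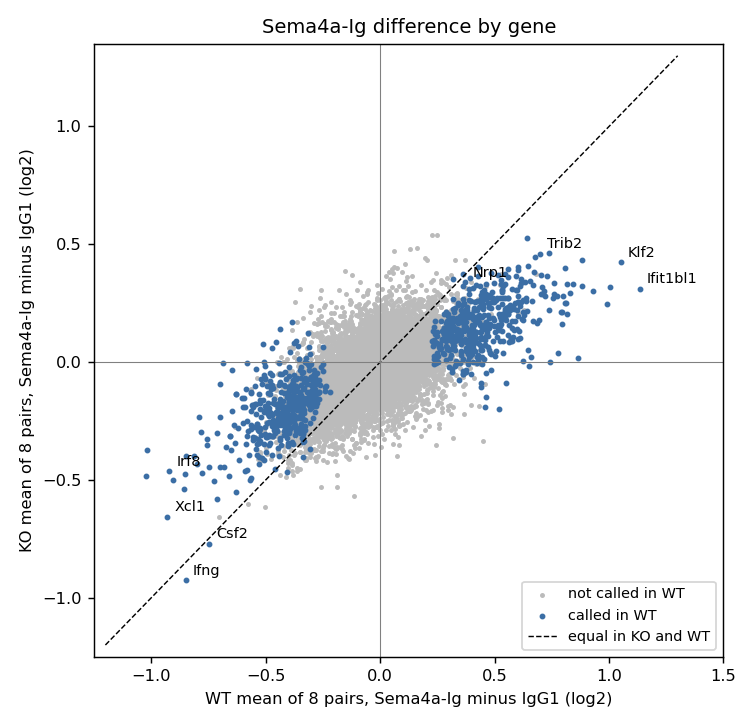
Mean difference in log2 signal, Sema4a-Ig minus IgG1, of 8 WT pairs (horizontal) and 8 KO pairs (vertical) for 9961 genes above the controls. Blue points were called in WT, and the dashed line marks equal values. Most blue points lie nearer to 0 in KO than in WT, Ifng and Csf2 lie near the line, and Ifit1bl1 (1.13 in WT, 0.31 in KO) lies far from it.

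The KO pairs did not share 1 size of difference. For genes called higher in WT the median was 0.34 in KO pair 3, 0.05 in pair 6 and 0.03 in pair 7, and for those called lower -0.53, -0.04 and -0.01. In pair 7, 62.4% and 54.9% of the genes had the sign seen in WT. In that pair 48.5% of all genes were positive, so for the genes called lower the share was near that of all genes. In pair 3 the shares were 89.2% and 89.2%, beside 44.6% of all genes positive.

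**Figure D5:**
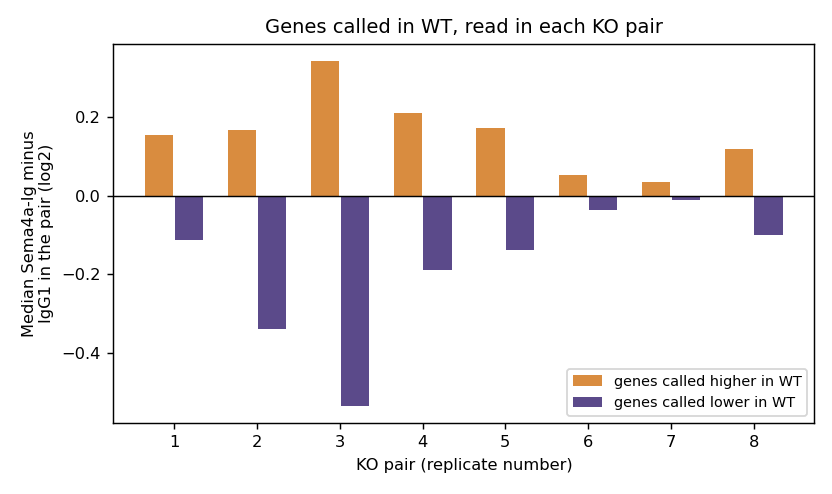
Median difference in log2 signal, Sema4a-Ig minus IgG1, in each KO pair over the 498 genes called higher in WT (orange) and the 492 called lower (purple). Pair 3 has the tallest bars (0.34 and -0.53) and pair 7 the shortest (0.03 and -0.01).

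The 10 largest WT calls in each direction were also read in KO. The chemokine gene Pf4 of platelets had 0.02 ± 0.19 in KO (0.09 without pair 3) and 0.86 in WT (KO minus WT -0.85, 95% interval -1.39 to -0.30; limma, adjusted p = 0.716), near the control signal at 3.99. Gbp8 had 0.24 and 0.99, Itih5 0.32 and 0.88, and Ecm1, a secreted matrix protein gene, 0.29 and 0.83. On the negative side Il3 had -0.48 ± 0.23 in KO (-0.31 without pair 3) and -1.02 in WT, Pdgfb -0.37 ± 0.22 and -1.02, and the prostaglandin receptor gene Ptger3 -0.14 ± 0.17 (-0.07 without pair 3) and -0.87, the last below the controls. Ifng, by contrast, had -0.93 and -0.85. None of these 20 genes passed the test of KO minus WT.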

How the data were processed

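The authors' deposited values are log2 signals per probe set, made with RMA and Partek 6.6 per the submitters' processing notes. No label records a further step. The equal pair means show a centring by pair, found by comparing all pairs (other pairings of the KO arrays deviate by 0.484 or more). Gene names came from GEO's platform annotation. Of 45141, 28898 had 1 gene, 551 several and 15692 none, and each of 17097 genes was read from its brightest probe set on average over the 32 arrays. Symbols were updated by Entrez identifier. Array means ran from 4.78 to 4.80, and the number of arrays limits the precision. The 16 pair differences entered limma 3.58.1 in R 4.3.3 (a mean per genotype, 14 residual degrees of freedom, eBayes, two-sided, Benjamini-Hochberg over 17097 genes, threshold 0.05). Standard errors (±) and 95% intervals are from this moderated fit, so a gene has the same standard error in KO and WT. The intervals are not adjusted. The procedure was tested on simulated data. Promoter sequences are from RefSeq.

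The members and the 24 gene lists were chosen with earlier results of these data known. Named genes are Klf2, Xcl1 and Trib2, the 10 largest in each direction among genes above the controls with 1 sign in all 8 KO pairs, the semaphorin list, up to 4 genes per list with the largest KO difference, and the 10 largest WT calls in each direction. Genes outside this rule are named as chosen after their values were seen. Alternatives changed the scaling, filter, spread model, probe set rule, covariates, pairing and the pairs included.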

Additional observations from a re-analysis of the deposited data

Results flagged for a closer look

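Of 51 sets of 8 KO pair values checked, 12 held a pair whose gap to its nearest neighbour exceeded Dixon's limit at 95%. That limit is set for about 1 in 20 independent random sets. These sets share the same 8 pairs, overlap and include genes picked for large differences in them, so the count is not read against that rate. Pair 3 was the pair that stood apart in 10 of the 12. It had 1.19 for Klf2 (the others 0.02 to 0.51), 1.37 for Klf3 (0.04 to 0.65), 1.45 for Mycn (0.09 to 0.64), -2.0003 for Asns (-0.74 to -0.06), -1.73 for Pla2g12a (-0.90 to -0.15) and -1.71 for Tg (-0.58 to -0.03). Its list medians stood apart for cell cycle (-0.76), glycolysis and glucose uptake (-0.44), integrated stress response (-0.43) and the Treg signature (-0.13, the others 0.000215 to 0.08). Pair 1 stood apart in the 3' minus 5' signal difference of Actb (0.24, the others -0.08 to 0.05), and pair 4 in the mean difference of myeloid markers above the controls (0.62, the others -0.34 to 0.09).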

How the results depend on the processing

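No alternative that kept the pairs called a gene in KO or in KO minus WT (smallest adjusted p 0.132 and 0.129). With no replicate block, which takes the 32 arrays as independent and so understates the error of centred pairs, 1734 genes were called in KO (4659 at an unadjusted p under 0.05), 530 in KO minus WT (3160) and 4417 in WT. Leaving out each pair in turn gave 1062 (without KO pair 3) to 2021 (without WT pair 3) genes at an unadjusted p under 0.05 in KO, 858 to 1225 in KO minus WT, and 258 (without WT pair 3) to 1328 (without KO pair 3) calls in WT, with 413 without WT pair 7 and 538 without WT pair 1. Without WT pair 2, whose labels disagree, KO minus WT had 0 calls and 1036 at an unadjusted p under 0.05. Among genes above the controls KO minus WT had 666 at an unadjusted p under 0.05 and WT 1509 calls. WT had 395 calls with the 3' minus 5' signal as a covariate, 43 with the myeloid score (KO minus WT 741 at an unadjusted p under 0.05), and 431 without the pairs numbered 3 in both genotypes, a setting chosen after seeing the data, which gave 1275 in KO at an unadjusted p under 0.05. Residuals of KO and WT pairs with the same number correlated between -0.10 and 0.33, so the numbers were not taken as pairing the genotypes. As a replicate block across genotypes, added after seeing the data, they gave 0 calls and 1132 genes at an unadjusted p under 0.05 in KO minus WT. Of 155 named genes, none of which passed in KO, 24 changed the sign of their KO difference under at least 1 alternative. The 20 with 1 direction in all pairs cannot turn when a pair is left out. The cause of these shifts was not tested.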

Other observations

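The genes named here are among those with the smallest p in KO minus WT and were chosen after their values were seen. Ap5s1, a subunit gene of an adaptor complex, had 0.31 ± 0.11 in KO, positive in all 8 pairs, and -0.35 in WT. Tas1r3, a taste receptor gene, had 0.31 in KO and -0.26 in WT, and Tmem120b 0.14 (0.09 without KO pair 3) and -0.44. Zbtb20, a transcription factor gene, had 0.02 in KO (-0.05 without KO pair 3) and 0.66 in WT. Further Zbtb20 probe sets above the controls, with lower signals, gave 0.14, 0.20 and 0.40 in KO, against 0.56, 0.73 and 0.57 in WT. The KO value thus differed between the probe sets. The interferon-inducible gene Ifi27l2a had 0.09 in KO and 0.57 in WT. Calhm6 had -0.20 in KO and 0.52 in WT. None passed (limma, adjusted p = 0.614 for each).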
